A study of Arabidopsis thaliana with 24 samples.

Results

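The comparison described here is that of Fe-deficient with Fe-supplied rosette leaves of the nicotianamine synthase mutant nas4x-1. It rests on 6 ATH1 arrays of the 24 in the series, chosen by sample title: 3 arrays of nas4x-1 leaves at - Fe and 3 of nas4x-1 leaves at + Fe. The nas4x-1 plants were Arabidopsis thaliana of the Columbia ecotype with T-DNA insertions in all 4 NICOTIANAMINE SYNTHASE (NAS) genes, carried by the - Fe and the + Fe plants alike, and all of them come from this 1 mutant line. Plants grew in hydroponic solution with 10 µM Fe until they were 4 weeks old and then spent 7 days with 0 µM Fe (- Fe) or with 10 µM Fe (+ Fe), so that leaves were taken at 5 weeks. The experiment was repeated in 3 consecutive weeks, and the arrays were paired by that harvest week. Wild type leaves (6 arrays) and nas4x-1 roots (6 arrays), grown and treated alike, serve below for comparison.

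Fe is needed in leaves for haem, for Fe-S clusters and for the electron transport chains of chloroplasts and mitochondria, and free Fe promotes the formation of reactive oxygen. When Fe is short, plants raise a set of basic helix-loop-helix (bHLH) transcription factors and small IRONMAN peptides that signal the deficit, and they lower the ferritins, which hold surplus Fe in the plastid. Superoxide dismutases exist in forms that use Fe and in forms that use Cu and Zn. Nicotianamine is a small chelator that keeps Fe, Cu and Zn mobile in phloem and between cells. It is made by the NAS enzymes, and YELLOW STRIPE-LIKE (YSL) transporters move its metal complexes.

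The values below are the deposited signals, intensities on a linear scale. Every array had been scaled to the same distribution, so that a signal can be compared between arrays for 1 gene but not between genes. Differences were tested with limma on log2(signal + 16) over the 12 leaf arrays, with harvest week as a block, and a gene is said to have risen or fallen where its p, adjusted by Benjamini and Hochberg over 22746 probe sets, was under 0.05. A log2 difference is - Fe minus + Fe throughout. The added 16 makes it smaller than that of the plain signals for genes of low signal. The labelled organ was borne out by its markers. RCA (AT2G39730), the Rubisco activase of green tissue, had signals between 3723 and 4735 in the 6 arrays of nas4x-1 leaves, against 29.3 to 88.6 in those of nas4x-1 roots. PYK10 (AT3G09260), a root beta-glucosidase, did not exceed 14.4 in the leaves and was at least 2985 in the roots. Whole leaves were used, so that fewer cells of a type and less RNA per cell cannot be told apart. Within leaf groups, log2 signals of 2 arrays had correlations of 0.957 to 0.979 over all probe sets.

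At this threshold 57 probe sets rose and 70 fell in nas4x-1 leaves at - Fe, together 0.558% of the 22746 tested (0.251% up and 0.308% down). The median log2 difference over all probe sets was 1.11e-05, and 83 of the 127 changed by at least 2-fold on this scale. All 127 went the same way in all 3 weeks, and in 110 of them the 3 arrays at - Fe did not overlap the 3 at + Fe, as was the case for 11.2% of all probe sets (5.61% with - Fe above and 5.56% with - Fe below). The calls were made on these same arrays, so both counts are a description and no further support. Of the 127, 83 were matched to 1 gene. For 25 of these 83 the gene name came only from lists of the study, and 44 of the 83 are in lists that the study selected on these same arrays. The number of calls depended on the model: without the week block 8 probe sets rose and 9 fell (0.0747% of those tested), all of them among the 127. With the wild type arrays left out of the fit, 6 passed. Without the + Fe array of week 2, 10 passed.

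**Figure D1:**
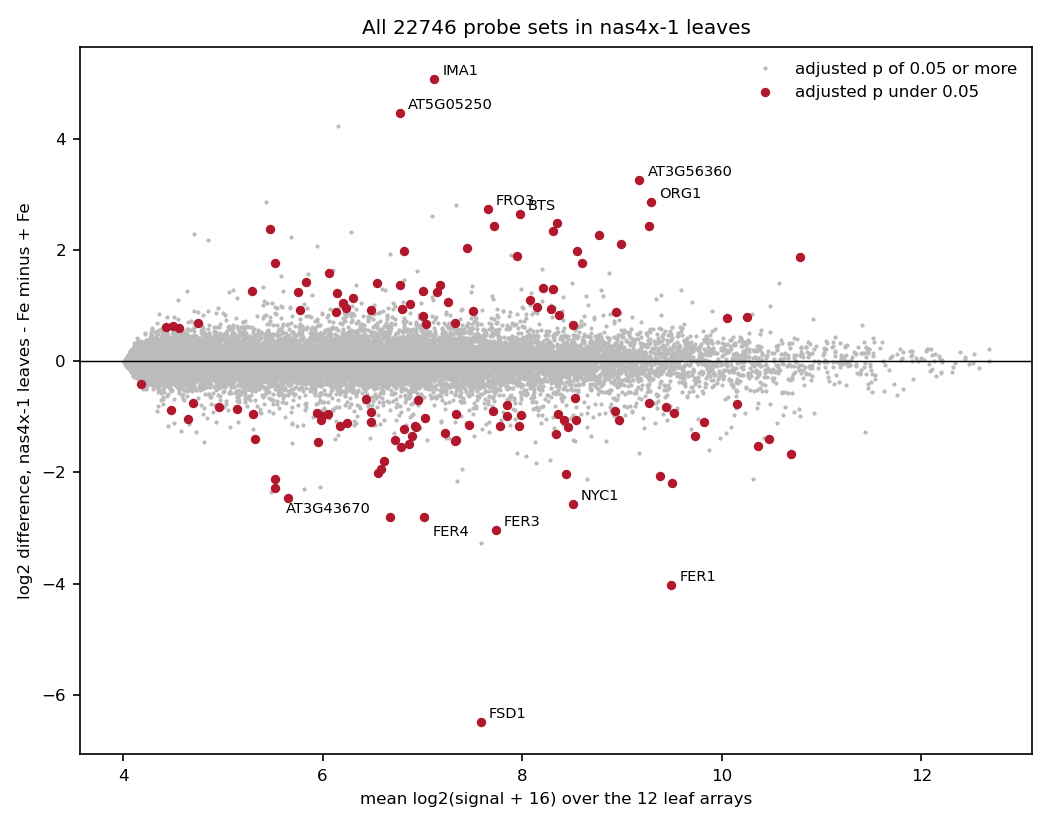
Mean log2(signal + 16) over the 12 leaf arrays (x axis) against the log2 difference of nas4x-1 leaves, - Fe minus + Fe (y axis), 1 point for each of 22746 probe sets. The 127 red points passed the test. FSD1, at -6.49, and IMA1, at 5.08, lie at the extremes of those that passed.

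The 4 NAS genes are the mutated ones and are given first. NAS2 (AT5G56080) had signals of 15.6, 37.1 and 37.6 at - Fe in weeks 1 to 3, against 107, 92.3 and 109 at + Fe (log2 difference -1.40, SE 0.24, adjusted p = 0.0364). All 3 arrays at - Fe were below all 3 at + Fe, and NAS2 fell. The call was lost without the week block (adjusted p = 0.0851) and in each of the 6 fits that left out 1 array, where adjusted p reached 0.207. In wild type leaves the same probe set had 2.52, 1.60 and 11.2 at - Fe and 13.4, 3.22 and 6.39 at + Fe, so that NAS2 signals were higher in every nas4x-1 leaf array than in any wild type one. NAS3 (AT1G09240) had 16.5, 10.5 and 10.1 at - Fe, against 48.7, 35.01 and 24.6 at + Fe, without overlap but also without passing the test (-0.86, adjusted p = 0.207). In wild type leaves, where NAS3 had 66.5, 22.7 and 48.2 at - Fe and 355, 129 and 313 at + Fe, it fell (log2 difference -2.15, adjusted p = 0.00634). The difference between the 2 responses was not past the threshold (adjusted p = 0.342). NAS1 (AT5G04950) had 6.68, 5.33 and 10.6 at - Fe, against 20.2, 23.1 and 19.3 at + Fe, without overlap (-0.65, adjusted p = 0.516), and NAS4 (AT1G56430) had 40.8, 30.9 and 1.204 at - Fe, against 1.65, 17.5 and 17.1 at + Fe, with overlapping arrays (0.41, adjusted p = 0.819). Unlike NAS2, these 2 genes were lower in every nas4x-1 leaf array than in any wild type one. Wild type leaves had 85.8 to 431 for NAS1 and 41.5 to 593 for NAS4. Where the T-DNA insertions lie relative to the probe sets was not analysed here, so a signal does not show whether a whole transcript was made. The names of all 4 came from the study's lists, and 3 of the 4 are among genes the study selected on these arrays.

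The largest change of all was that of FSD1 (AT4G25100), an Fe superoxide dismutase found in plastids. Its signals were 14.3, 0.512 and 5.15 at - Fe in weeks 1 to 3, against 2833, 1312 and 2020.1 at + Fe. It lay near the bottom of the scale on every - Fe array and high on every + Fe array (log2 difference -6.49, SE 0.17, adjusted p = 1.01e-07; without the week block adjusted p = 0.000102). Its Cu/Zn-dependent counterpart in the plastid, CSD2 (AT2G28190), went the other way. CSD2 had 2480.3, 2499 and 3515 at - Fe, against 608, 1063 and 652 at + Fe, again without overlap (log2 difference 1.87, SE 0.24, adjusted p = 0.0134; without the week block 0.059). CSD2 passed in 1 of the 6 fits that left out 1 array, with adjusted p of up to 0.0788. CCS (AT1G12520), the chaperone that inserts Cu into the Cu/Zn dismutases, had 731, 624 and 598 at - Fe and 137, 222 and 116 at + Fe and rose as well (log2 difference 1.98, SE 0.20, adjusted p = 0.00433). CCH (AT3G56240), a Cu chaperone of another kind, fell to 586, 467 and 307 at - Fe, against 1554, 928 and 1032 at + Fe (log2 difference -1.35, SE 0.18, adjusted p = 0.0134). These were the 4 called members, 2 up and 2 down (0.251% of all probe sets rose and 0.308% fell), of a list of superoxide dismutases and Cu economy genes, of which 9 of 20 could be measured, 8 of them through names given by the study. The Cu transporters COPT1, COPT2 and COPT5 and the Cu pumps HMA5 and HMA7 had log2 differences between -0.42 and 0.27 and did not pass. The study had selected 5 of the 9 on these arrays, all 4 called ones among them, so the count is not independent of that choice. The median of the list was -0.09.

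**Figure D2:**
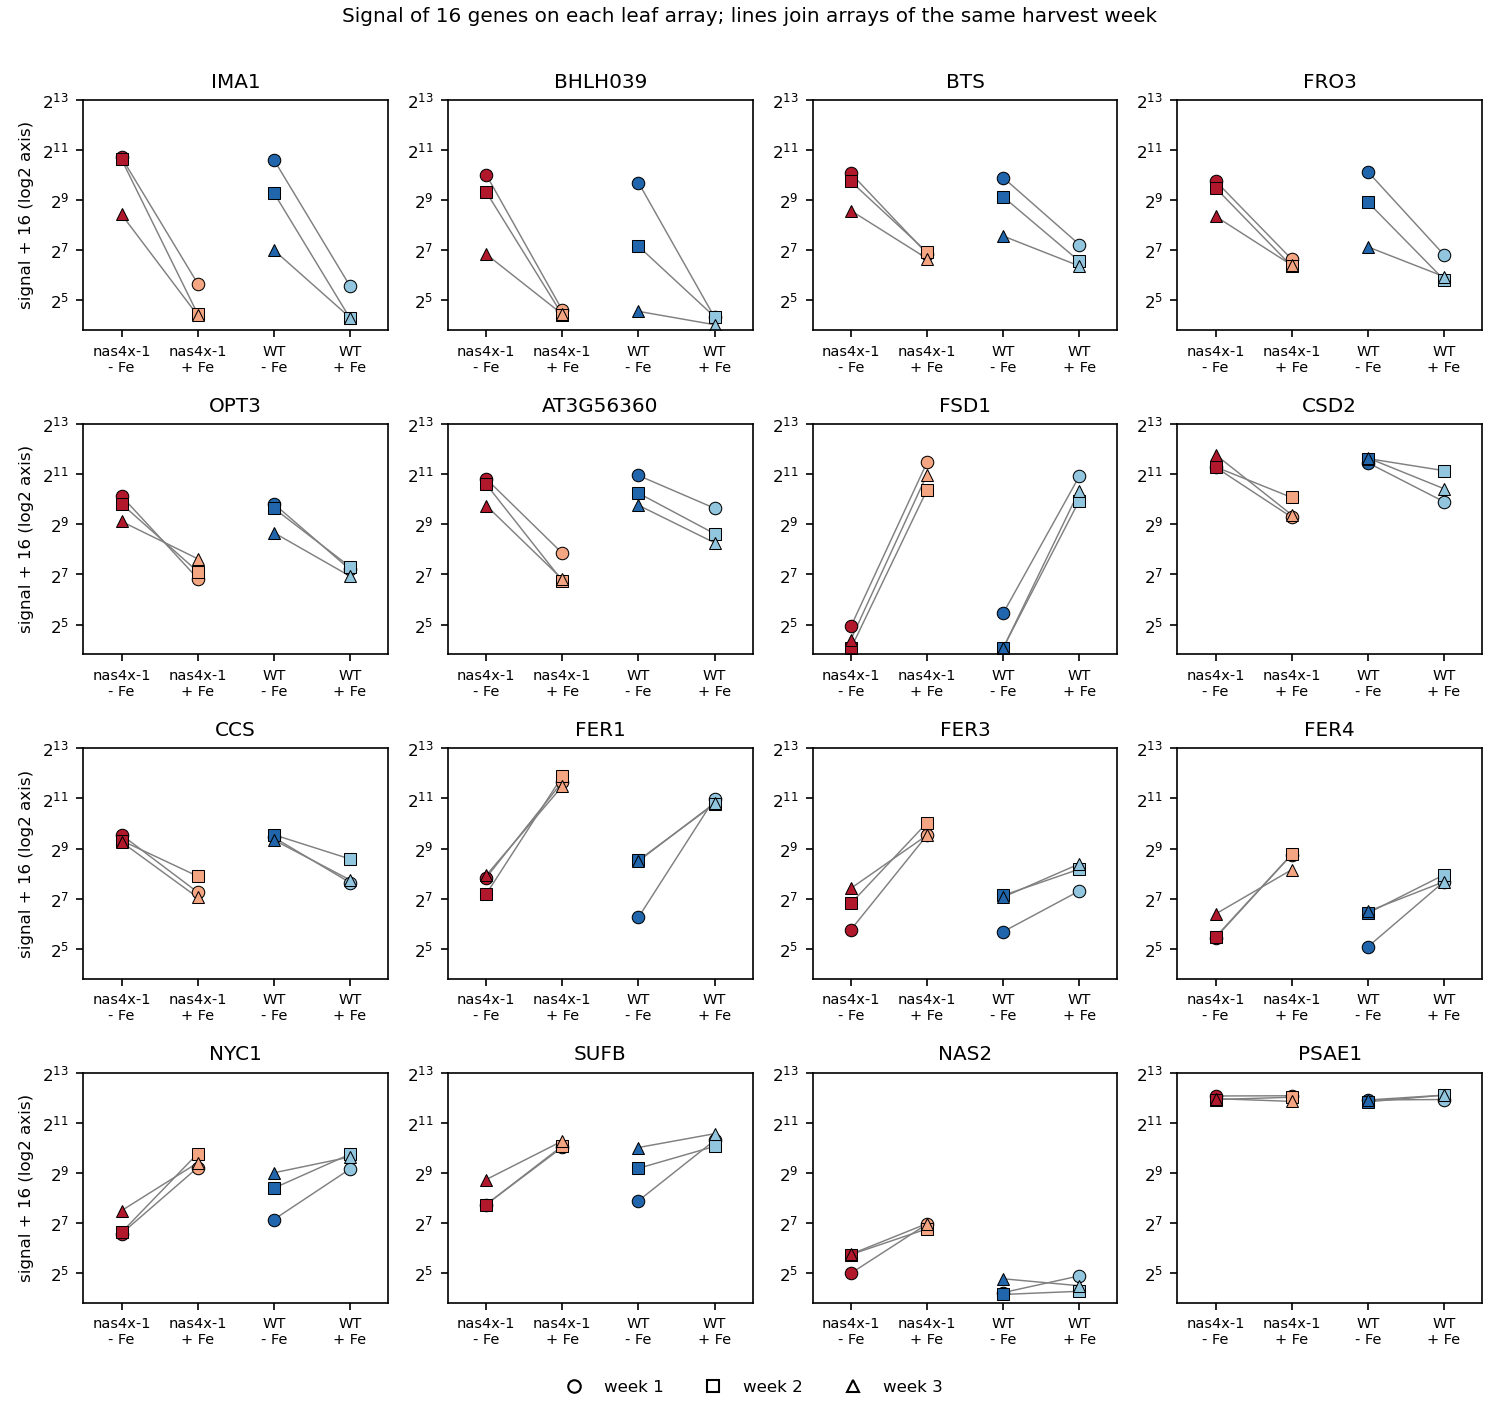
Signal + 16 (log2 axis) of 16 genes on each of the 12 leaf arrays, with nas4x-1 in red and wild type in blue, - Fe left of + Fe; symbols are harvest weeks and grey lines join arrays of the same week. FSD1 and the ferritins lie lower at - Fe in every week, IMA1, BTS, FRO3 and OPT3 lie higher, and PSAE1, a photosystem I subunit, stays near the top of the scale in all arrays.

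Ferritins and other genes of Fe storage and of the Fe-replete state were called in 1 direction. Of 9 measured members of this list out of 11, 4 fell and none rose, against 0.308% of all probe sets that fell. The list median was -1.79. The study had selected 5 of the 9 on these arrays, so this count is not independent of that choice. FER1 (AT5G01600), the main leaf ferritin, had 213, 129 and 228 at - Fe, against 3234, 3775 and 2862 at + Fe (log2 difference -4.03, SE 0.48, adjusted p = 0.0112). FER3 (AT3G56090), a plastid ferritin, had 38.0, 96.0 and 154 at - Fe, against 724, 1030 and 725 at + Fe (log2 difference -3.04, SE 0.26, adjusted p = 0.00163). FER4 (AT2G40300), which is found in plastids and mitochondria, had 27.3, 28.2 and 67.6 at - Fe, against 417, 421 and 269 at + Fe (log2 difference -2.80, SE 0.35, adjusted p = 0.0126). None of these 3 ferritins had overlapping groups, nor had 110 of the 127 called probe sets. With - Fe below, groups did not overlap for 5.56% of all probe sets. FER2 (AT3G11050), the seed ferritin, was near the bottom of the scale on all arrays, with 4.55, 6.98 and 8.13 at - Fe and 8.95, 14.5 and 11.1 at + Fe (-0.28, adjusted p = 0.399). VTL2 (AT1G76800), of the family of vacuolar Fe transporter-like proteins, fell to 45.3, 31.3 and 32.2 at - Fe, against 239.6, 130 and 139 at + Fe (log2 difference -1.79, SE 0.23, adjusted p = 0.0134). NEET (AT5G51720), an Fe-S protein singled out after its values were seen, had 35.01, 19.0 and 97.9 at - Fe, against 1026, 263 and 609 at + Fe. The groups of NEET did not overlap, but its size varied between weeks and it did not pass (log2 difference -3.27, SE 0.76, adjusted p = 0.109). VIT1, VTL3 and VTL4 had signals of at most 15.9 on every nas4x-1 leaf array.

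Among the regulators of the Fe deficiency response, 3 of 18 measured genes rose and none fell (0.251% of all probe sets rose), with a list median of 0.15. IMA1 (AT1G47400), an IRONMAN peptide, had 1657, 1570 and 329 at - Fe, against 35.1, 5.97 and 5.14 at + Fe (log2 difference 5.08, SE 0.48, adjusted p = 0.00255). BTS (AT3G18290), a ubiquitin ligase with Fe-binding haemerythrin domains that limits the response, had 1062, 846 and 369 at - Fe, against 101, 106 and 86.0 at + Fe (log2 difference 2.65, SE 0.32, adjusted p = 0.0121). Its relative BTSL1 (AT1G74770) rose at a low level, to 65.8, 77.3 and 41.4 at - Fe, against 10.1, 0.504 and 9.26 at + Fe (log2 difference 1.78, SE 0.23, adjusted p = 0.0134), while a second probe set of BTSL1 did not pass (log2 difference 0.26, adjusted p = 0.537). The week 3 array at - Fe was the lowest of its group for all 3 of these genes.

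That week also set apart the bHLH factors. BHLH039 (AT3G56980), a factor of the group that is raised by Fe deficiency and acts with FIT in roots, had 1023, 628 and 99.1 at - Fe, against 8.38, 5.44 and 5.81 at + Fe. The log2 difference was 5.41 in week 1, 4.91 in week 2 and 2.40 in week 3. Its groups did not overlap, and the fitted difference of 4.24 (SE 0.79) missed the threshold (adjusted p = 0.0526). BHLH101 (AT5G04150), of the same group, had 325, 165 and 23.8 at - Fe, against 5.93, 1.36 and 0.796 at + Fe (2.86, adjusted p = 0.0611). PYE (AT3G47640), a bHLH factor that represses Fe homeostasis genes, had 217, 120.1 and 62.8 at - Fe, against 55.8, 29.7 and 27.9 at + Fe (1.37, adjusted p = 0.088). The upstream bHLH factors ILR3, BHLH34, BHLH104, BHLH115 and URI had log2 differences between -0.40 and 0.52 and adjusted p of at least 0.263. MYB10 and MYB72, root factors, and BHLH18, BHLH19, BHLH25, BTSL2 and GRF11 ranged between -0.18 and 0.25, with adjusted p of at least 0.586. The study selected 4 of the 18 genes on these arrays.

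In the list of Fe uptake and transport, 2 of 15 measured genes rose (0.251% of all probe sets did), none fell, and the median was 0.02. FRO3 (AT1G23020), a ferric chelate reductase of mitochondria, had 857, 705 and 313 at - Fe, against 84.2, 66.6 and 69.0 at + Fe (log2 difference 2.73, SE 0.42, adjusted p = 0.0316). OPT3 (AT4G16370), a phloem transporter needed for passing the leaf Fe status on to roots, had 1104, 888 and 539.9 at - Fe, against 98.5, 123 and 182 at + Fe (log2 difference 2.50, SE 0.31, adjusted p = 0.0121). NRAMP4 (AT5G67330), which releases Fe from the vacuole, had 1342, 985 and 499 at - Fe, against 274, 235 and 337 at + Fe, without overlap and without passing (1.59, adjusted p = 0.127). IRT3 (AT1G60960), a Zn and Fe transporter, was lower on every - Fe array, with 76.3, 139 and 111 at - Fe and 194, 309 and 447 at + Fe (-1.37, adjusted p = 0.112). IRT1, the Fe uptake transporter of the root surface, stayed at or below 21.3 on all 6 arrays. The 15 genes were all matched through names given by the study, which had selected 4 of them on these arrays, FRO3 and OPT3 included. FRO3 passed in 1 of the 6 fits that left out 1 array.

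Of the YSL transporters, all 8 were measured and YSL1 (AT4G24120), which moves metal-nicotianamine complexes in leaf veins, was the one that passed (0.308% of all probe sets fell). YSL1 had 44.6, 48.4 and 55.9 at - Fe, against 121, 184 and 178 at + Fe (log2 difference -1.41, SE 0.17, adjusted p = 0.0112; without the week block 0.105). YSL3 (AT5G53550), its close relative, had 87.9, 85.4 and 145 at - Fe, against 152, 187 and 236 at + Fe, with no overlap (-0.78, adjusted p = 0.0921). YSL2 and YSL4 to YSL8 had log2 differences between -0.44 and 0.14. Of 18 measured genes of Zn transport, ZIP5 (AT1G05300) fell, to 23.8, 73.8 and 24.1 at - Fe, against 105, 290.2 and 234 at + Fe (log2 difference -2.01, SE 0.31, adjusted p = 0.0316). ZIP5 passed in 1 of the 6 fits that left out 1 array. YSL1 and ZIP5 were both selected by the study on these arrays. The other 17 had log2 differences between -1.05 and 0.28, with ZIP4 the lowest (-1.05, adjusted p = 0.221), and the list median was -0.13.

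**Figure D3:**
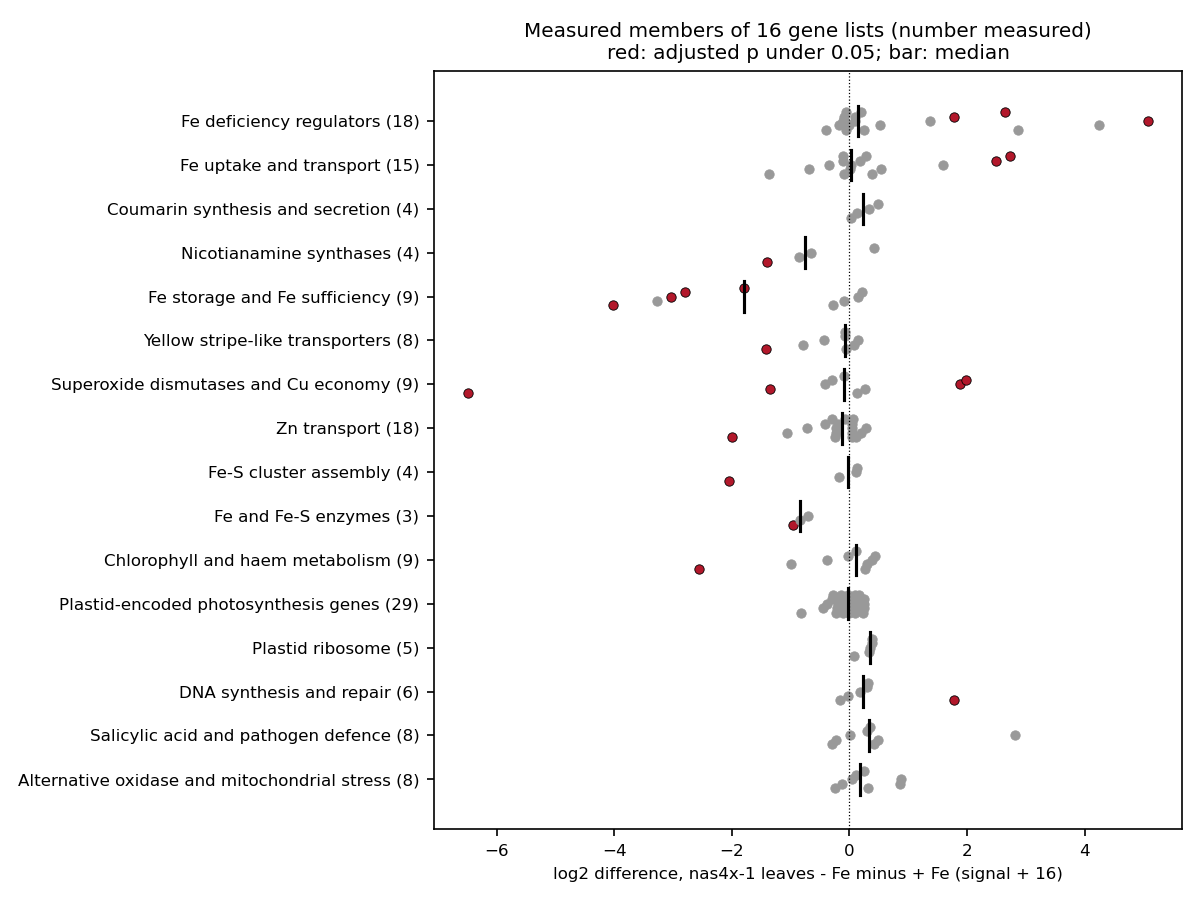
Log2 difference of nas4x-1 leaves, - Fe minus + Fe, for the measured members of 16 gene lists (points), with the number measured after the list's name and the median as a bar; red points passed the test. The called members lie above 0 among regulators and uptake genes and below 0 among Fe storage genes, and the 29 plastid-encoded photosynthesis genes lie around 0 with a median of -0.03.

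None of the measured photosynthesis genes passed. Of all probe sets 0.558% did, a share at which few or no calls would be expected among so few genes. Of the 29 photosynthesis genes encoded in the plastid itself none passed in either direction, and the median was -0.03. How well the labelling step captured transcripts made in the plastid was not tested. These 29 values therefore do not show that plastid transcripts were unchanged. The lowest of the 29, ndhK, a subunit of the NAD(P)H dehydrogenase-like complex, had 285, 182 and 285 at - Fe, against 571, 254 and 609.6 at + Fe (-0.82, adjusted p = 0.144). Of the listed nuclear genes, 3 of 12 of photosystem I, 3 of 13 of photosystem II and 3 of 20 of the antenna were measured, and none passed. PSAG, counted among these, belongs to the pairs whose wild type signals were interchanged, given below. PSAN, a photosystem I subunit, differed most, with 2193, 2112 and 3117 at - Fe, against 4217, 3193 and 3440.5 at + Fe, without overlap (-0.56, adjusted p = 0.289). PSAE1 (AT4G28750) had 4265, 3865 and 3960.2 at - Fe and 4292, 4121 and 3672 at + Fe, and LHCB4.1 (AT5G01530), a minor antenna protein, had 3960.2, 4509 and 4825 at - Fe, against 5247, 4880.5 and 5020 at + Fe (-0.19, adjusted p = 0.661). RCA, PRK and SBPASE, enzymes that serve carbon fixation, were each higher on all 3 arrays at - Fe than on those at + Fe, by 0.18, 0.35 and 0.34 in log2, with adjusted p between 0.331 and 0.656.

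Of 4 measured genes of Fe-S cluster assembly and 3 of Fe and Fe-S enzymes, 1 each fell and none rose (0.308% of all probe sets fell). The study had selected SUFB on these arrays, and SUFB counted as measured only through a name from the study's lists. The count for cluster assembly is thus not independent of that choice. SUFB (AT4G04770), part of the scaffold on which plastids assemble Fe-S clusters, had 196, 196 and 407 at - Fe, against 1022, 1060.1 and 1216 at + Fe (log2 difference -2.06, SE 0.32, adjusted p = 0.0322), and passed in 1 of the 6 fits that left out 1 array. ISU1, the mitochondrial scaffold, HCF101 and NFS2, other assembly proteins, had log2 differences between -0.18 and 0.12, with adjusted p of at least 0.605. SDH2-1 (AT3G27380), the Fe-S subunit of succinate dehydrogenase, fell to 132, 148 and 212 at - Fe, against 342, 286 and 367 at + Fe (log2 difference -0.97, SE 0.16, adjusted p = 0.0337), a call lost in each fit that left out 1 array. A second probe set of SDH2-1 had a log2 difference of 0.00 at very low signals (adjusted p = 0.997). Its twin gene SDH2-2 (-0.71, adjusted p = 0.223) and SIR, the sulfite reductase (-0.84, adjusted p = 0.247), also had groups that did not overlap. SAPX (AT4G08390), the stromal ascorbate peroxidase, a haem enzyme, had 65.0, 30.9 and 104 at - Fe, against 308, 328 and 349 at + Fe (-2.16, adjusted p = 0.0612).

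In chlorophyll and haem metabolism, 1 of 9 measured genes fell (0.308% of all probe sets did) and none rose. The called gene, NYC1, was among those the study had selected on these arrays. It counted as measured only through a name from the study's lists, so this count is not independent of that choice. NYC1 (AT4G13250), a chlorophyll b reductase that starts the breakdown of chlorophyll b, had 79.1, 82.2 and 163 at - Fe, against 574, 853 and 658 at + Fe (log2 difference -2.56, SE 0.29, adjusted p = 0.00876). PORB (AT4G27440), a protochlorophyllide oxidoreductase, had 459.6, 2039.9 and 1759 at - Fe, against 2251, 2608 and 2259 at + Fe, with the week 1 array at - Fe far below the others (-0.99, adjusted p = 0.379). The other measured steps, from HEMA2 to CHLM, had log2 differences between -0.38 and 0.43 and did not pass.

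Beyond the lists, several of the largest increases were in genes with no Fe role in their name. AT5G05250, a gene of unnamed function, had 586, 647 and 218 at - Fe, against 6.45, 0.654 and 6.95 at + Fe (log2 difference 4.47, SE 0.36, adjusted p = 0.00141). AT3G56360, also unnamed, had 1794, 1541 and 848 at - Fe, against 214, 91.4 and 96.4 at + Fe, and had the smallest adjusted p of all genes that rose (log2 difference 3.26, SE 0.18, adjusted p = 5.48e-05; without the week block 0.0251). ORG1 (AT5G53450) had 1773, 1993 and 1199 at - Fe, against 243, 197 and 189.6 at + Fe (log2 difference 2.86, SE 0.31, adjusted p = 0.00656). DGAT3 (AT1G48300), an Fe-S-containing enzyme of triacylglycerol synthesis, had 1784, 1020.4 and 679 at - Fe, against 361, 111 and 155 at + Fe (log2 difference 2.44, SE 0.20, adjusted p = 0.00141). BETA-OHASE 1 (AT4G25700), a beta-carotene hydroxylase of xanthophyll synthesis that uses Fe, had 1046, 617 and 304 at - Fe, against 149, 64.1 and 86.3 at + Fe (log2 difference 2.44, SE 0.27, adjusted p = 0.00876). AT3G16670 had 443, 649 and 773 at - Fe, against 76.0, 132 and 235 at + Fe (log2 difference 2.05, SE 0.19, adjusted p = 0.00255), and AT1G12030 had 280.4, 166 and 51.9 at - Fe, against 10.7, 10.0 and 20.5 at + Fe (log2 difference 2.39, SE 0.43, adjusted p = 0.0472). The call of AT1G12030 was lost without the week block and held in 2 of the 6 fits that left out 1 array. None of these 7 genes had overlapping groups, nor had 110 of the 127 called probe sets. With - Fe above, groups did not overlap for 5.61% of all probe sets.

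Among the decreases outside the lists, AT3G43670, a Cu-containing amine oxidase gene, had 24.2, 15.9 and 25.0 at - Fe, against 269, 241 and 225 at + Fe (log2 difference -2.80, SE 0.32, adjusted p = 0.00926). AT3G49160 had 10.5, 4.03 and 10.3 at - Fe, against 113, 92.004 and 152 at + Fe (log2 difference -2.46, SE 0.21, adjusted p = 0.00163). AT2G25625 was at or below 1.05 on the 3 arrays at - Fe and had 152, 45.7 and 37.5 at + Fe (log2 difference -2.28, SE 0.30, adjusted p = 0.0134). AT1G59930 had 28.1, 7.96 and 10.6 at - Fe, against 112, 173 and 78.4 at + Fe (log2 difference -2.12, SE 0.28, adjusted p = 0.0154). COR413IM1 (AT1G29395), a cold-induced protein of the inner chloroplast envelope, had 230, 423 and 140.2 at - Fe, against 1447, 1388 and 765 at + Fe (log2 difference -2.19, SE 0.30, adjusted p = 0.0186), and passed in 1 of the 6 fits that left out 1 array. All 5 had groups that did not overlap, as had 110 of the 127 called probe sets and, with - Fe below, 5.56% of all probe sets.

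Other cold-induced genes did not pass. COR47 had 462, 1065 and 452 at - Fe, against 1871, 2539 and 885 at + Fe (-1.39, adjusted p = 0.0789), and COR15B had 93.8, 1199 and 441 at - Fe, against 933, 2085 and 842 at + Fe (-1.60, adjusted p = 0.144). Week 2 was high at both Fe supplies and the groups overlapped, while within each week the - Fe array was the lower one. The clock gene GI (AT1G22770) showed the same pattern, with 80.2, 293 and 221 at - Fe, against 244, 667 and 441 at + Fe, and passed with the week block (log2 difference -1.18, SE 0.19, adjusted p = 0.0337) but not without it (adjusted p = 0.636) and in none of the 6 fits that left out 1 array. Of 6 measured genes of starch and sucrose metabolism none passed (0.558% of all probe sets did) and 2 lay above 0. Of these 6, PWD, a starch-phosphorylating enzyme, had 142, 503 and 253 at - Fe, against 394, 901 and 389 at + Fe (-0.93, adjusted p = 0.0839).

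TSO2 (AT3G27060), the small subunit of ribonucleotide reductase, carries an Fe centre and supplies DNA synthesis. It was the called member of 6 measured genes of DNA synthesis and repair (0.251% of all probe sets rose). The study had selected all 6 on these arrays, so this count is not independent of that choice. TSO2 had 881, 720.4 and 375 at - Fe, against 103, 193 and 242 at + Fe (log2 difference 1.78, SE 0.32, adjusted p = 0.0453). The call of TSO2 was lost without the week block and held in 2 of the 6 fits that left out 1 array. The repair genes PARP2, BRCA1 and XRI1 and the thymidine kinase TK1A had log2 differences between -0.16 and 0.31. Of 8 measured genes of salicylic acid and pathogen defence none passed (0.558% of all probe sets did), and 7 of them ranged between -0.30 and 0.48. The remaining one, PDF1.2A, a defensin, had 3929, 162 and 2906 at - Fe, against 38.0, 225 and 441 at + Fe, with the week 2 array at - Fe below all the others but one (2.81, adjusted p = 0.276). Coumarin synthesis genes, which roots use to mobilise Fe, were measured for 4 of 6 genes and none passed in these leaves, nor did any of 8 genes of alternative oxidase and mitochondrial stress. The other measured lists gave no called member: nuclear photosynthetic electron transport, catalases and peroxidases, plastid RNA polymerase, plastid ribosome, Calvin cycle, terpenoid synthesis, LBD factors, mitosis, light stress, heat shock, flavonoids, senescence, and the markers of mesophyll, root, phloem and guard cells. Catalases and peroxidases, with SAPX and TAPX measured, had a median of -1.09. The medians of the others lay between -0.71 for 1 measured phloem marker, SWEET11, and 0.80 for 2 flavonoid genes.

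Of the called genes outside the naming rule, 3 are given for their known roles, chosen after their values were seen. PAL2 (AT3G53260), which opens the phenylpropanoid pathway, had 558, 447 and 516 at - Fe, against 203, 144 and 249 at + Fe (log2 difference 1.31, SE 0.12, adjusted p = 0.00255). CHIL (AT5G05270), a chalcone isomerase-like protein of flavonoid synthesis, had 114, 60.3 and 62.1 at - Fe, against 17.8, 13.4 and 24.6 at + Fe (log2 difference 1.42, SE 0.23, adjusted p = 0.0337). ALN (AT4G04955), the allantoinase of purine breakdown, fell to 66.8, 36.5 and 40.4 at - Fe, against 142, 117 and 129 at + Fe (log2 difference -1.21, SE 0.15, adjusted p = 0.0127).

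The same contrast in wild type leaves, fitted on the same arrays and weeks, called 203 probe sets up and 73 down (1.21% of those tested, 0.892% up and 0.321% down). Of these, 39 were also called in nas4x-1 leaves, all 39 in the same direction, which is 30.7% of the 127 and 14.1% of the 276. The 276 include members of pairs whose signals were interchanged in wild type arrays, given below. With the 8 pairs described there left out, 256 were called in wild type leaves. Of the 127 probe sets called in nas4x-1 leaves, 117 had the same sign in wild type, and the log2 difference was larger in size in nas4x-1 for 118. They were picked for their size in nas4x-1, so a larger value there follows in part from the choice. FSD1 in wild type had 27.7, 0.733 and 0.617 at - Fe, against 1920.4, 976 and 1285 at + Fe (log2 difference -5.88, adjusted p = 1.42e-07). IMA1 had 1561, 615 and 113 at - Fe, against 31.8, 3.59 and 3.93 at + Fe (4.25, adjusted p = 0.00494). As in nas4x-1, week 3 had the lowest IMA1 and BHLH039 signals of the - Fe arrays, and BHLH039 of the wild type had 818, 127 and 7.63 at - Fe, against 4.03, 4.31 and 0.333 at + Fe (2.91, adjusted p = 0.127).

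**Figure D4:**
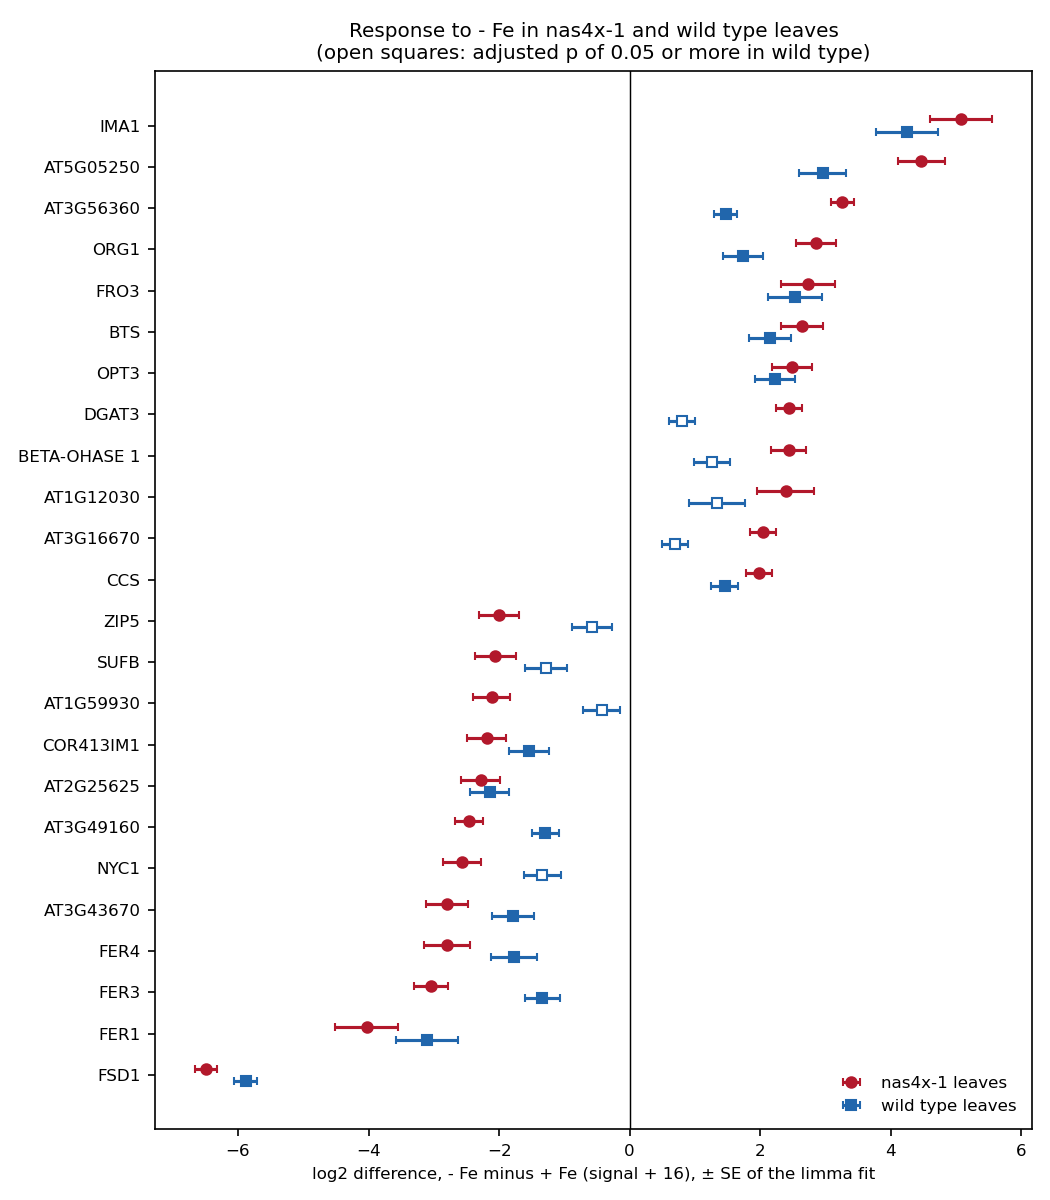
Log2 difference between - Fe and + Fe leaves (± SE of the limma fit, 3 arrays per group) for the 24 genes with the largest called changes in nas4x-1, in nas4x-1 (red circles) and wild type (blue squares, open where adjusted p was 0.05 or more). All 24 have the same sign in both, from IMA1, at 5.08 for nas4x-1 against 4.25 for wild type, to FSD1 at -6.49 and -5.88.

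The test of whether the response differed between nas4x-1 and wild type leaves called 13 probe sets (0.0572% of those tested), 5 above 0 (0.022%) and 8 below 0 (0.0352%), none of which was called in nas4x-1 leaves. For the 24 genes with the largest called changes, the difference of responses thus did not pass. AT3G56360 came closest, where the response was 3.26 for nas4x-1, against 1.48 for wild type (difference 1.78, SE 0.25, adjusted p = 0.05005). In wild type it had 1967, 1199 and 854 at - Fe, against 785, 379.7 and 292 at + Fe, so that the groups were closer at - Fe than at + Fe. For DGAT3 the difference was 1.64 (adjusted p = 0.131) and for FER3 -1.70 (0.218), where wild type had 35.2, 124 and 117 at - Fe, against 142, 274 and 319 at + Fe. The unadjusted 95% interval of the difference was -1.15 to -0.07 for FSD1 and -0.71 to 1.23 for OPT3.

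Of the 13 probe sets, 10 form 5 pairs in which the signals of 2 probe sets were interchanged in the wild type arrays, in 3 pairs at - Fe and in 2 at + Fe. Whether the deposited values of these pairs stand beside the right probe sets in those arrays was not tested, so their differences between genotypes cannot be read as responses of the named genes. PSAG, a photosystem I subunit, had 4154, 4084 and 4735 in nas4x-1 at - Fe and 4436, 4589 and 5087 at + Fe, while the wild type signals were 146, 98.99 and 103 at - Fe and 4659, 4659 and 5177 at + Fe. AT5G26610 had 122, 84.1 and 78.0 in nas4x-1 at - Fe and 97.7, 121 and 108 at + Fe, while the wild type signals were 4217, 4465 and 4954 at - Fe and 134, 119 and 122 at + Fe. In the wild type - Fe arrays the signal listed for each of the 2 was thus near that of the other elsewhere. With these 5 pairs and 3 further ones left out, which do not change places with Fe supply in leaves, a choice made after the data were seen, no probe set passed the test of the difference (2014 had an unadjusted p under 0.05), while the 127 calls in nas4x-1 leaves stayed at 127. The 8 pairs include no gene called in nas4x-1 leaves. TK1A (AT3G07800), 1 of the 3 other probe sets, had 198, 194 and 211 at - Fe and 159.6, 177 and 194 at + Fe in nas4x-1 leaves. Wild type leaves had 449, 666 and 859 at - Fe, against 133, 135 and 125 at + Fe. Its response was 0.17 for nas4x-1, against 2.15 for wild type (difference -1.97, SE 0.24, adjusted p = 0.0182). Without the 8 pairs, of which it is no member, the difference stayed at -1.97 with an adjusted p of 0.119, and TK1A passed in 5 of 12 fits that left out 1 array. TSO2 passed in both genotypes, at 1.78 for nas4x-1, against 3.59 for wild type, and the difference did not pass (adjusted p = 0.265). Likewise the salicylic acid synthesis gene ICS1 (0.35 for nas4x-1, 1.85 for wild type) and the repair gene PARP2 (0.31 and 2.23) passed in wild type leaves, while the difference between genotypes did not pass (adjusted p = 0.203 and 0.257).

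Against nas4x-1 roots, the response to - Fe differed for 63 probe sets (0.277% of those tested), 28 of them with the larger value in leaves (0.123%) and 35 with the smaller (0.154%). Of the 127 called in leaves, 36 were among the 63. Both tests use the same leaf arrays, so this count is a description. FSD1 had 0.142, 3.87 and 0.746 in roots at - Fe, against 21.5, 40.5 and 37.2 at + Fe, and its response was -6.49 in leaves and -1.46 in roots (difference -5.03, SE 0.45, adjusted p = 6.15e-05). FSD1 signals were at the bottom of the scale at - Fe in both organs, so that the size of this difference rests on the added constant. With an offset of 1 it was -4.60 and did not pass (adjusted p = 0.0756). FER3 (-3.04 in leaves, -0.96 in roots, adjusted p = 0.0276) and FER4 (-2.80 in leaves, -0.68 in roots, 0.0311) had the lower value in leaves. FER1 did not pass this test (-4.03 and -1.38, 0.0763). YSL1 had a response of -1.41 in leaves and 0.04 in roots (adjusted p = 0.0155).

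Among genes with a larger value in leaves were CCS (1.98 in leaves, 0.20 in roots, adjusted p = 0.0132), CSD2 (1.87 and 0.34, 0.0358), BETA-OHASE 1 (2.44 and -0.08, 0.00577) and BTS (2.65 and 0.65, 0.0486). In the 12 fits that left out 1 array, the call between organs held in 12 for BETA-OHASE 1 and 11 for CCS. The call held in 1 for BTS and in 2 for FER4. The response of IMA1 was 5.08 in leaves and 1.67 in roots, and the difference missed the threshold (0.0742). VTL2 had a response of -1.79 in leaves and -1.70 in roots (difference -0.09, SE 0.59, adjusted p = 0.975). LTP6 (AT3G08770), a lipid transfer protein gene, had 131, 227 and 119 in leaves at - Fe, against 40.1, 20.8 and 60.5 at + Fe, and its response differed between organs (1.65 in leaves, -0.40 in roots, adjusted p = 0.0283) while it did not pass in leaves alone (adjusted p = 0.0637). S8H, an enzyme of coumarin synthesis, had a response of 0.33 in leaves and 2.92 in roots, and MYB72 one of -0.09 in leaves and 2.36 in roots, but neither difference passed (adjusted p = 0.291 and 0.147). Without the week block 1 probe set, that of FSD1, passed the test between organs.

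**Figure D5:**
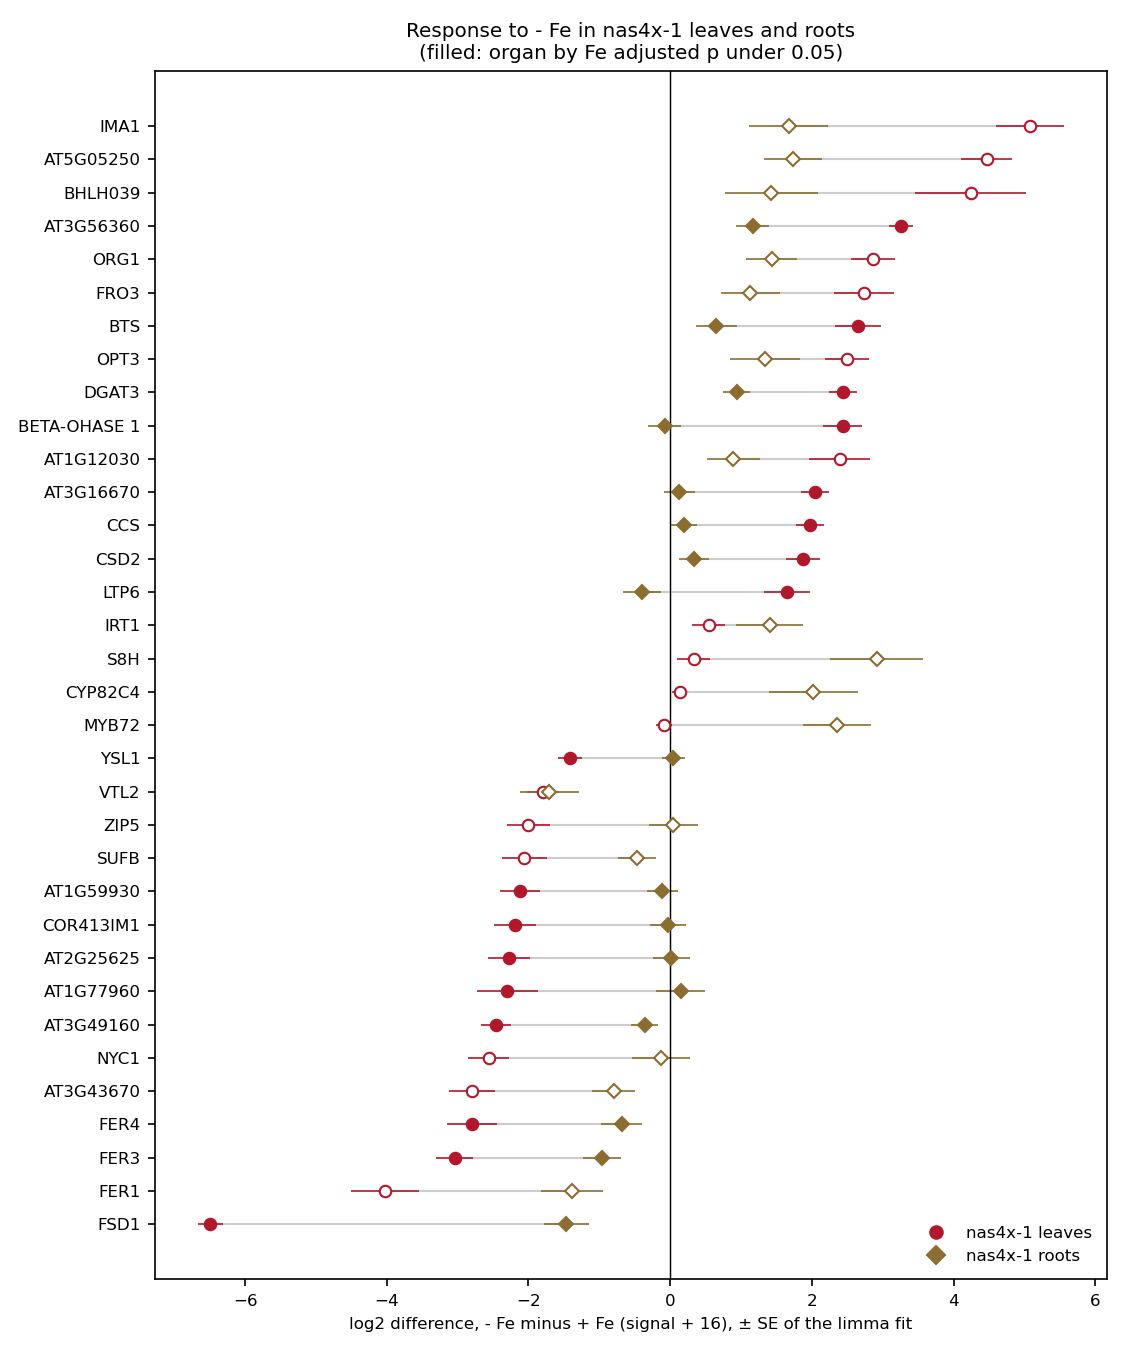
Log2 difference between - Fe and + Fe in nas4x-1 leaves (red circles) and nas4x-1 roots (brown diamonds), ± SE of the limma fits, for named genes; filled symbols passed the test between organs. FSD1 spans from -6.49 in leaves to -1.46 in roots, while VTL2 lies at -1.79 and -1.70.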

How the data were processed

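RNA of 24 samples (2 organs, leaf and root, of the nas4x-1 mutant and its wild type, each at - Fe and + Fe in 3 harvest weeks) was hybridised to ATH1 arrays. The authors computed probe set signals with GCOS and quantile-normalised them over all arrays; the deposited values are intensities on a linear scale. The authors' own comparison lists were used for no value. All values were used as log2(signal + 16).

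Differences were fitted with limma 3.58.1 in R 4.3.3 (lmFit, and eBayes with an intensity trend) and adjusted by Benjamini and Hochberg over 22746 probe sets, 64 control probe sets being left out. The fit took the 12 leaf arrays, and for roots against leaves all 24, with harvest week as a block, because the design repeats each treatment in 3 consecutive weeks. As a check, deviations from group means had correlations of 0.170 to 0.505 between leaf arrays of the same week and -0.447 to 0.122 between different weeks. The arrays of a group are plants of separate weeks. Their number, 3 per group, limits the precision.

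Of the 22810 probe sets on the array, 13705 were matched to 1 gene, 505 to several and 8536 to none. For 192 of them the match came only from lists of the study, which hold genes it selected on these arrays. Named genes were, in each direction, up to 12 called probe sets of 1 gene with the largest change that went the same way in all weeks, up to 6 in each direction of each interaction, up to 4 of each gene list by smallest p, and all NAS genes, ferritins and Fe deficiency regulators. Of 39 gene lists, those of protein targeting to the chloroplast and of phosphate starvation had no measured member. The members and lists were chosen with earlier results of these data known. The fitting code was tested on simulated data. Alternatives changed the block, the offset, the normalisation, the filter on dim probe sets, the variance model and the arrays in the fit. Promoter sequences were not analysed here.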

Additional observations from a re-analysis of the deposited data

Results flagged for a closer look

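The listed signals of 12 named genes passed the limma test of a difference in response to - Fe between nas4x-1 and wild type leaves. On the log2 scale, as the nas4x-1 response minus the wild type one, the difference was 5.093 for PSAG, 3.986 for AT2G21920, 3.913 for NUDX13, 2.934 for AT3G14100 and 2.86 for SYP122. It was -5.203 for AT5G26610, -4.149 for CYP72A13, -3.874 for AT1G32760, -2.914 for CcdA and -2.736 for FRS12. These 10 are members of the pairs whose signals are interchanged in the wild type arrays. Whether the deposited values stand beside the right probe sets there was not tested, so these 10 values cannot be read as responses of the named genes. In nas4x-1 leaves their responses lay between -0.31 for AT3G14100 and 0.42 for NUDX13. The other two were TK1A, at -1.974, and AT2G20142, at -1.977. The call of AT2G20142 (adjusted p = 0.0458) was lost without the week block (0.693), without the 8 pairs (0.138, at the same difference) and in 8 of 12 fits that left out 1 array.

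The response also differed between nas4x-1 leaves and nas4x-1 roots for 18 named genes, 8 of them with the larger value in leaves. Given as the leaf response minus the root one in log2, the difference was 2.514 for BETA-OHASE 1, 2.091 for AT3G56360, 2.045 for LTP6, 1.997 for BTS, 1.92 for AT3G16670, 1.779 for CCS, 1.534 for CSD2 and 1.5 for DGAT3. It was -5.026 for FSD1, -2.443 for AT1G77960, -2.298 for AT2G25625, -2.158 for COR413IM1, -2.117 for FER4, -2.1 for AT3G49160, -2.077 for FER3, -2.003 for AT1G59930, -1.509 for HMA3 and -1.457 for YSL1. HMA3 and AT1G77960 did not pass the test in leaves alone, with log2 differences of -0.30 and -2.30. Several of the 18 were near the bottom of the scale in nas4x-1 roots at both Fe supplies. Root signals were at most 1.52 for AT2G25625, 3.80 for AT1G59930, 5.11 for AT1G77960 and 9.04 for COR413IM1. They were at most 13.7 for AT3G49160 and 14.1 for AT3G16670. For these genes the difference between organs mostly restates the change in leaves.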

How the results depend on the processing

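Counts of calls depended on the processing. The 33 named genes called in nas4x-1 leaves kept their sign under every alternative that gave them a value. All 127 calls went the same way in every harvest week, and the alternatives reuse the same arrays. The kept signs were thus nearly given in advance and are no further support for the directions. The 127 calls became 17 with no replicate block, 6 with only the arrays compared in the fit, 235 without the dimmest 40% of probe sets and 493 with all 24 arrays in the fit, a choice made after seeing the data. An analysis of variance modelled on the one in the methods gave 511 at an unadjusted p under 0.05 and 0 after Benjamini and Hochberg. It took the larger of actual and averaged variance but left out the Bayesian error model that the methods list. The study's own tool was not run, and the study did report differentially expressed leaf genes with it. Leaving out 1 array at a time gave 10 to 71, lowest without the + Fe array of week 2. Of the 33 named genes, 14 passed without the block (AT1G59930, AT3G43670, AT3G49160, AT3G56360, AT5G05250, BTSL1, CCS, FER1, FER3, FER4, FSD1, OPT3, ORG1 and VTL2), 6 with only the arrays compared (AT3G43670, AT3G49160, AT3G56360, FER1, FSD1 and ORG1), and 9 without that array; these last 9 (AT5G05250, AT3G56360, FER3, AT3G49160, FSD1, AT3G16670, CCS, IMA1 and DGAT3) passed whichever array was left out. GI, NAS2 and SDH2-1 passed in none of these 6 fits, COR413IM1, CSD2, FRO3, SUFB and ZIP5 in 1, and AT1G12030 and TSO2 in 2. Removing all 225 probe sets in pairs that exchange levels by at least 1.5 in log2 left 8 calls. That filter also takes out strong responders, and 5 of the 33 named genes kept a value. Of these 5, 3 passed, while SDH2-1 and GI did not. At an unadjusted p under 0.05, 2689 probe sets passed after this filter, against 2785 in the main fit. Adjusted p was computed anew over the probe sets that stayed. Why calls were lost among them was not tested.

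In wild type leaves 276 calls became 40 without the block, 70 with only the arrays compared, 95 without exchanging pairs, 808 with all 24 arrays, 708 and 10 by analysis of variance before and after adjustment, and 19 to 272 without 1 array. For the difference between genotypes 13 became 20 without the dimmest 40%, 150 with all 24 arrays, 360 and 4 by analysis of variance, 0 without exchanging pairs (1930 at an unadjusted p under 0.05), 0 without the 8 pairs (2014), and 9 to 65 without 1 array, while 14 passed with no replicate block. For the difference between organs 63 became 1 without the block, 27 at an offset of 1, 27 with only the arrays compared, 517 and 0 by analysis of variance, 3 without exchanging pairs, where that filter removed 5377 probe sets, and 5 to 92 without 1 array. The cause of these shifts was not tested. The remaining alternatives stayed within 1.5 times the count.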
